A study of Mus musculus with 10 samples.

Results

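Described here are 10 mouse genes whose mean signal in cultured Wolffian ducts was lower with a hedgehog agonist and also lower with a hedgehog inhibitor than in vehicle cultures: Nmur2, Maob, Entpd1, Lmcd1, Minar2, Galnt16, Trpc4, Ahr, Rgs7bp and Gria1. They are 10 of 19505 genes named on the array, each measured by a single probe set. They were chosen because both treated means lay below the vehicle mean, so their differences from vehicle are a description of the selection and carry no test. The comparison of SAG with cyclopamine takes no vehicle mean and was tested. The vehicle arrays do enter the shared estimate of spread behind its errors, intervals and p-values. The treated means of that comparison also entered the choice, and genes chosen as low with both compounds may tend to similar levels with each.

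Wolffian ducts are the embryonic tubes that form the epididymis and vas deferens. Hedgehog ligands act by releasing the membrane protein Smoothened from inhibition by the receptor Patched, after which GLI transcription factors switch on target genes. The genes described belong to no single pathway. They encode receptors, ion channel subunits, enzymes, a transcription factor and a few regulatory proteins, several of them best known from nerve cells.

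Ducts from embryos at 16.5 days post-coitum were cultured for 72 h at an air-liquid interface, and their RNA was measured on Affymetrix arrays. Of the 10 arrays, 4 came from cultures with 0.5 µM SAG, which activates Smoothened, 3 from cultures with 25 µM cyclopamine, a plant alkaloid that inhibits Smoothened, and 3 from vehicle cultures, which the protocols describe as culture medium. The series calls the samples of a group biological replicates. The sources used here give neither strain, sex and genotype nor any pooling of ducts, and they do not say whether the vehicle medium held the solvent of the compounds. A difference made by either compound and a difference made by a solvent present in the treated cultures alone cannot be told apart with this design. The titles name the tissue pronephros, and the protocols name it Wolffian duct.

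All values are log2 signals as the authors deposited them, so a difference of 1 is a 2-fold difference in signal. Array medians lay between 7.55 and 7.70. The hedgehog targets Gli1 (13.24 to 13.61 with SAG, 4.56 to 5.37 with cyclopamine, 11.43 to 12.63 with vehicle) and Hhip (16.01 to 16.81, 5.66 to 6.21 and 11.09 to 12.67 in that order) separated the 3 groups in the direction of each compound's action. Among the markers of duct epithelium, Pax8 averaged 10.84 with SAG, 13.24 with cyclopamine and 11.90 with vehicle, and E-cadherin (Cdh1) 12.93, 15.57 and 14.37. Cyclopamine replicate 2 stood apart on the second principal component (-51.7, against 13.0 and 13.6 for the other cyclopamine arrays). Precision is limited by the number of arrays. In bulk tissue, fewer cells of a type and less RNA per cell cannot be told apart.

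All 7 treated arrays lay below all 3 vehicle arrays for 10 of the 10 genes, an order that 338 of the 22206 probe sets on the array showed (1.52%). Both treated means lay below the vehicle mean for 6056 probe sets (27.3%). Because the genes were chosen on these contrasts, nothing is read from the first count. The median difference from vehicle over the 10 genes was -1.51 with SAG and -1.48 with cyclopamine, beside medians of 0.01 and 0.02 over all probe sets. Both differences are taken against the same 3 vehicle arrays, so any deviation of a vehicle array enters both.

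**Figure D1:**
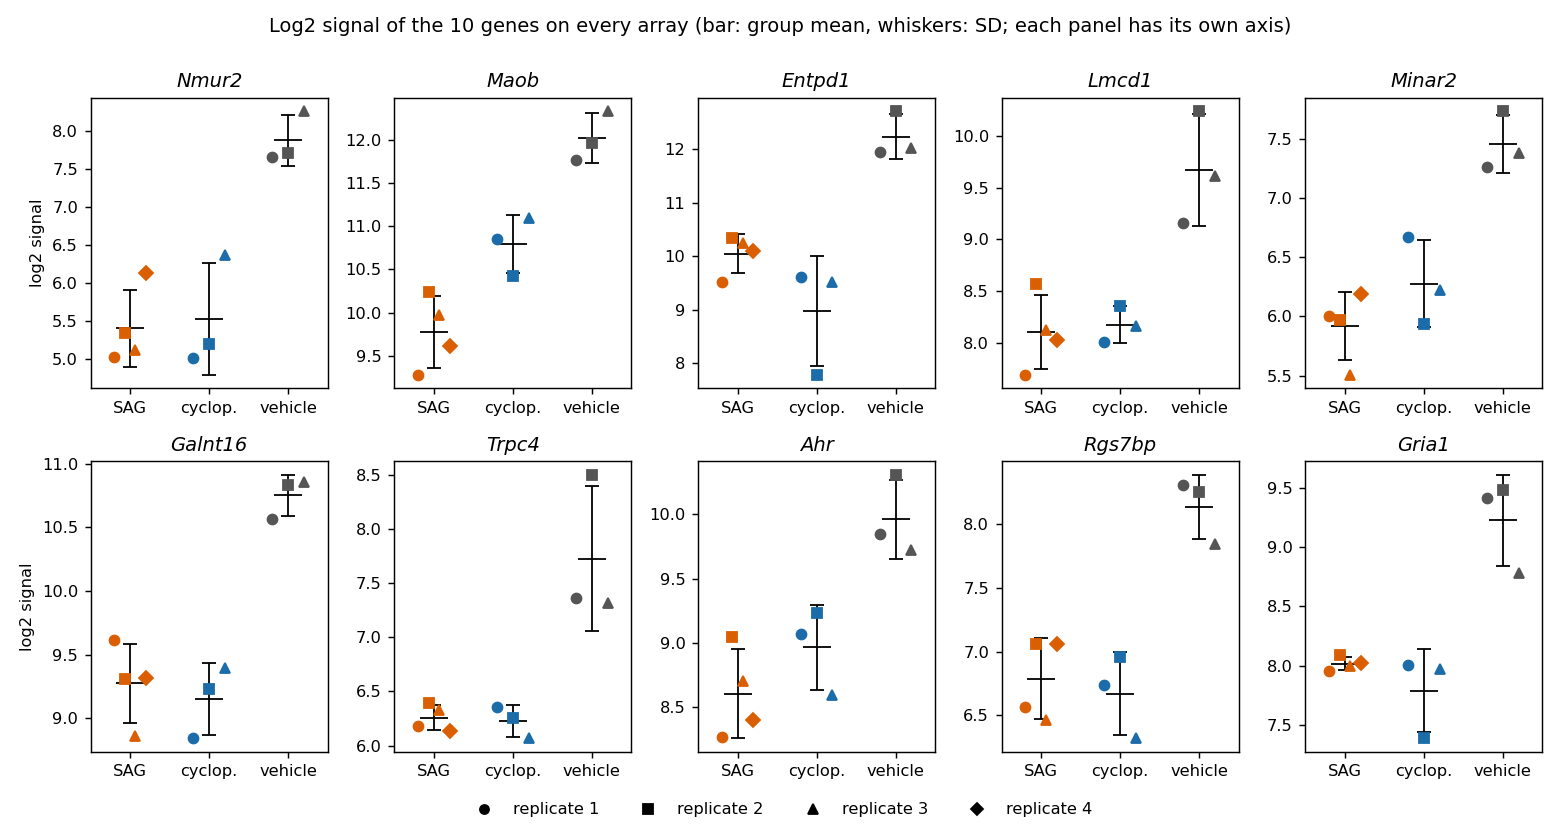
Log2 signal (vertical axis) of each of the 10 genes on each array, 1 panel a gene, with SAG (4 arrays), cyclopamine (3) and vehicle (3) from left to right; points are arrays, bars are group means and whiskers 1 SD. In every panel the 7 treated arrays sit below the 3 vehicle arrays, and in the Maob panel the SAG arrays also sit below the cyclopamine arrays.

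For 6 of the 10 genes RefSeq start sites were at hand, as 9 windows of 250 bases directly before a start (build GRCm38.p6). The windows of 4 genes are printed as examples of those with a match to the motifs searched for, without Galnt16, which also has matches but has 3 windows: Nmur2 (chr11:56040988-56041237, minus strand), the more upstream of the Entpd1 starts (chr19:40612116-40612365, plus strand), Lmcd1 (chr6:112273508-112273757, plus strand) and Trpc4 (chr3:54155807-54156056, plus strand). Each is written 5′ to 3′ on the strand of its gene, and capitals mark a match, on either strand, to the core of the GLI site, CCACCC, to the GLI consensus GACCACCCA, which contains that core, or to the core of the site bound by the aryl hydrocarbon receptor with its partner ARNT, GCGTG.
Nmur2: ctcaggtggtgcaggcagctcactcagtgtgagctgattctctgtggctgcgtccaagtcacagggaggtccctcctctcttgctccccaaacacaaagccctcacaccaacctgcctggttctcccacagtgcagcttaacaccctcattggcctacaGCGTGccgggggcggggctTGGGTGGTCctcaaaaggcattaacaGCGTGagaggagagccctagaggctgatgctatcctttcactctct
Entpd1: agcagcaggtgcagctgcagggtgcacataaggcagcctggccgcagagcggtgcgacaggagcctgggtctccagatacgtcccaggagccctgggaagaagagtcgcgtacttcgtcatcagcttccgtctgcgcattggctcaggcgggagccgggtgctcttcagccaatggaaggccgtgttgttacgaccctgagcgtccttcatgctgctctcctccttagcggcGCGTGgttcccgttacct
Lmcd1: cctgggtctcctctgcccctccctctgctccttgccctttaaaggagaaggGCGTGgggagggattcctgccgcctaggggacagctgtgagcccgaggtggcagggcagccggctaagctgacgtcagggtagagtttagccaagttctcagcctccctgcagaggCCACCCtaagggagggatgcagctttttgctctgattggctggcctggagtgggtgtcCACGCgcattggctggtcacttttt
Trpc4: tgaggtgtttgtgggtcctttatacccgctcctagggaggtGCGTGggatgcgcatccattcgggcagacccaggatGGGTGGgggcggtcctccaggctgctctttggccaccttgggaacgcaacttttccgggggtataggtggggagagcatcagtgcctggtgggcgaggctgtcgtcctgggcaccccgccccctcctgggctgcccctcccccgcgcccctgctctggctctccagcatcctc

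The full GLI consensus was found in the Nmur2 window alone, on the reverse strand with its first base 72 bases before the start; 0.225% of the 32851 mouse windows of this length hold it. Its CCACCC core occurred in 6 of the 9 windows (those of Nmur2, Lmcd1 and Trpc4 and all 3 of Galnt16) and in 28.1% of all windows. GCGTG occurred in 5 of the 9 windows (1 each of Nmur2, Entpd1, Lmcd1, Galnt16 and Trpc4) and in 28.2% of all windows. The windows of Galnt16 overlap in part, and the GC content of the 9 windows was 43.2% to 70.4%, above the median of 52.4% over all windows for 7 of them. The TATA box letters TATAAA were found on the reverse strand of the Trpc4 window and in 12.4% of all windows, and the GATA letters AGATAA in none of the 9 windows and in 9.99% of all. A match is a run of letters and says nothing of binding. Nmur2 and Gria1 both lie on chromosome 11, with 9 annotated genes between them, none of which was measured under its name here. The other genes lie on chromosomes X (Maob), 19 (Entpd1), 6 (Lmcd1), 18 (Minar2), 12 (Galnt16 and Ahr), 3 (Trpc4) and 13 (Rgs7bp).

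Among the receptors, Nmur2 encodes the G protein-coupled receptor for the peptides neuromedin U and neuromedin S. Its log2 signals were 5.02, 5.33, 5.11 and 6.13 with SAG, 5.01, 5.19 and 6.37 with cyclopamine, and 7.65, 7.71 and 8.26 with vehicle. The treated arrays overlapped one another, and the highest of them, cyclopamine replicate 3, lay 1.29 below the lowest vehicle array. Group means were 5.40 ± 0.51 with SAG (SD, n = 4), 5.52 ± 0.74 with cyclopamine (n = 3) and 7.88 ± 0.34 with vehicle (n = 3). The differences from vehicle were thus -2.48 (5.57-fold lower) with SAG and -2.35 (5.10-fold lower) with cyclopamine. Several treated values lay near or under 5.19, the lower quartile of probe set means, where array signals can compress differences. The ligand gene Nmu averaged 4.54 with SAG, 4.64 with cyclopamine and 4.60 with vehicle and was under that quartile on all 10 arrays. Of 6 measured genes of neuromedin signalling, 0 passed in any of the 3 comparisons by limma; at an unadjusted p under 0.05, 1 was lower with SAG than with vehicle and 0 differed in the other comparisons.

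Gria1 encodes GluA1, a subunit of the AMPA-type glutamate receptor channel. The SAG arrays read 7.96, 8.09, 7.99 and 8.02, the cyclopamine arrays 8.01, 7.39 and 7.97, and the vehicle arrays 9.41, 9.48 and 8.78. Spread among the SAG arrays was the smallest of the 10 genes (SD 0.054), and vehicle replicate 3 lay well under the other vehicle arrays while still 0.70 above the highest treated array. The mean lay 1.21 lower with SAG (8.02 against 9.23; 2.32-fold) and 1.44 lower with cyclopamine (7.79 against 9.23; 2.71-fold). Against vehicle replicate 3 alone the SAG difference was -0.77.

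Other genes of glutamate receptors did not share one pattern. Of 16 measured, 0 passed with SAG against vehicle, while 4 fell with cyclopamine: Gria4, another AMPA receptor subunit (-1.59 ± 0.21, SE; limma adjusted p = 0.00261), Cnih2, an auxiliary AMPA receptor protein (-0.90 ± 0.17, limma adjusted p = 0.0129), the kainate receptor subunit gene Grik5 (-0.69 ± 0.16, limma adjusted p = 0.0321) and Cacng7 (-0.98, limma adjusted p = 0.0358), which was named after its values were seen. Gria4 averaged 10.94 with SAG, 9.24 with cyclopamine and 10.82 with vehicle, and its SAG and cyclopamine means differed by 1.71 ± 0.19 (limma adjusted p = 0.000283), whereas those of Gria1 differed by 0.23 ± 0.20 (limma adjusted p = 0.565). Without adjustment, at p under 0.05 by limma, 5 of the 16 were lower and 0 higher with SAG than with vehicle. With cyclopamine 7 were lower and 0 higher. Differences were below 0 for 10 of the 16 with SAG and for 9 with cyclopamine. Grik2 (-0.80 with SAG, -0.93 with cyclopamine) and Grin2b (-1.02 and -0.85), named after their values were seen, were lower with both compounds without passing. The Gria4 calls passed with any single array left out. The Cnih2 fall was lost without vehicle replicate 1 (adjusted p = 0.0536), the Grik5 fall without any vehicle array or cyclopamine replicate 1 or 3 (up to 0.0979), and the Cacng7 fall without any vehicle array, SAG replicate 2 or 3, or either of cyclopamine replicates 1 and 3 (up to 0.128).

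Trpc4 encodes a cation channel of the TRPC family that opens downstream of phospholipase C. With SAG it measured 6.18, 6.39, 6.32 and 6.14, with cyclopamine 6.36, 6.25 and 6.07, and with vehicle 7.36, 8.51 and 7.32. The treated groups covered the same narrow range, and vehicle replicate 2 stood more than 1 log2 unit above the other vehicle arrays. Group means were 6.26 ± 0.12 with SAG, 6.23 ± 0.15 with cyclopamine and 7.73 ± 0.67 with vehicle (SD), which gives -1.47 (2.77-fold lower) and -1.50 (2.84-fold lower). Without vehicle replicate 2 these differences were -1.08 and -1.12, the largest shift that any left-out vehicle array gave among the 10 genes (1.36 times). Of 9 measured TRPC and store-operated calcium entry genes, 0 passed with SAG against vehicle and 1 fell with cyclopamine, Trpc1 (-1.06 ± 0.22, limma adjusted p = 0.0221; -0.03 ± 0.21 with SAG). That fall was lost without any vehicle array or cyclopamine replicate 1 or 3 (adjusted p up to 0.0815), while the difference between SAG and cyclopamine (1.03 ± 0.21, limma adjusted p = 0.00852) passed with any array left out. Trpc5, the channel gene closest to Trpc4, was at -1.20 ± 0.29 with SAG and -0.95 ± 0.31 with cyclopamine, and neither passed (limma adjusted p = 0.107 and 0.117).

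Rgs7bp encodes a membrane anchor for the R7 family of RGS proteins, which speed the switching off of G proteins. Its signals were 6.57, 7.06, 6.46 and 7.06 with SAG, 6.73, 6.96 and 6.32 with cyclopamine, and 8.31, 8.25 and 7.85 with vehicle. As for Gria1, the lowest vehicle array was replicate 3, and it lay 0.78 above the highest treated array. Means were 6.79 ± 0.32, 6.67 ± 0.32 and 8.14 ± 0.25 (SD) with SAG, cyclopamine and vehicle, 2.55-fold lower with SAG (-1.35) and 2.77-fold lower with cyclopamine (-1.47). None of 8 measured genes of the R7 RGS complex passed in any comparison by limma; at an unadjusted p under 0.05, 1 was lower with SAG than with vehicle, 2 were lower with cyclopamine than with vehicle and 1 was higher with SAG than with cyclopamine. Rgs7 itself was at -0.62 ± 0.28 with SAG and -0.71 ± 0.30 with cyclopamine.

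Markers of neurons and glia varied among the cultures. Of 8 measured markers, 0 passed against vehicle in either comparison (unadjusted, 1 was lower with SAG and 0 differed with cyclopamine), and S100b was under the lower quartile of probe set means on all 10 arrays. Their summed signal, on the log2 scale, was 12.37, 11.56, 11.11 and 9.83 with SAG, 13.02, 13.33 and 11.36 with cyclopamine, and 13.28, 13.20 and 12.29 with vehicle. The sum weights the brightest markers. The mean log2 signal of the same 8 markers was 7.58, 7.34, 6.98 and 6.21 with SAG, 8.16, 6.83 and 6.53 with cyclopamine, and 8.21, 8.11 and 7.10 with vehicle. Cyclopamine replicate 2 was thus the highest of all arrays by the sum and below every vehicle array by the mean. Of the 8 differences, 6 were below 0 with SAG (median -0.52) and 7 with cyclopamine (median -0.50). On vehicle replicate 3 the sum, the mean, Gria1, Rgs7bp, Trpc4 and Ahr each had their lowest vehicle value. Nmur2, Maob and Galnt16 had their highest vehicle value on that array. The part of these cells in the differences of Gria1, Rgs7bp and Nmur2 was not tested.

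**Figure D2:**
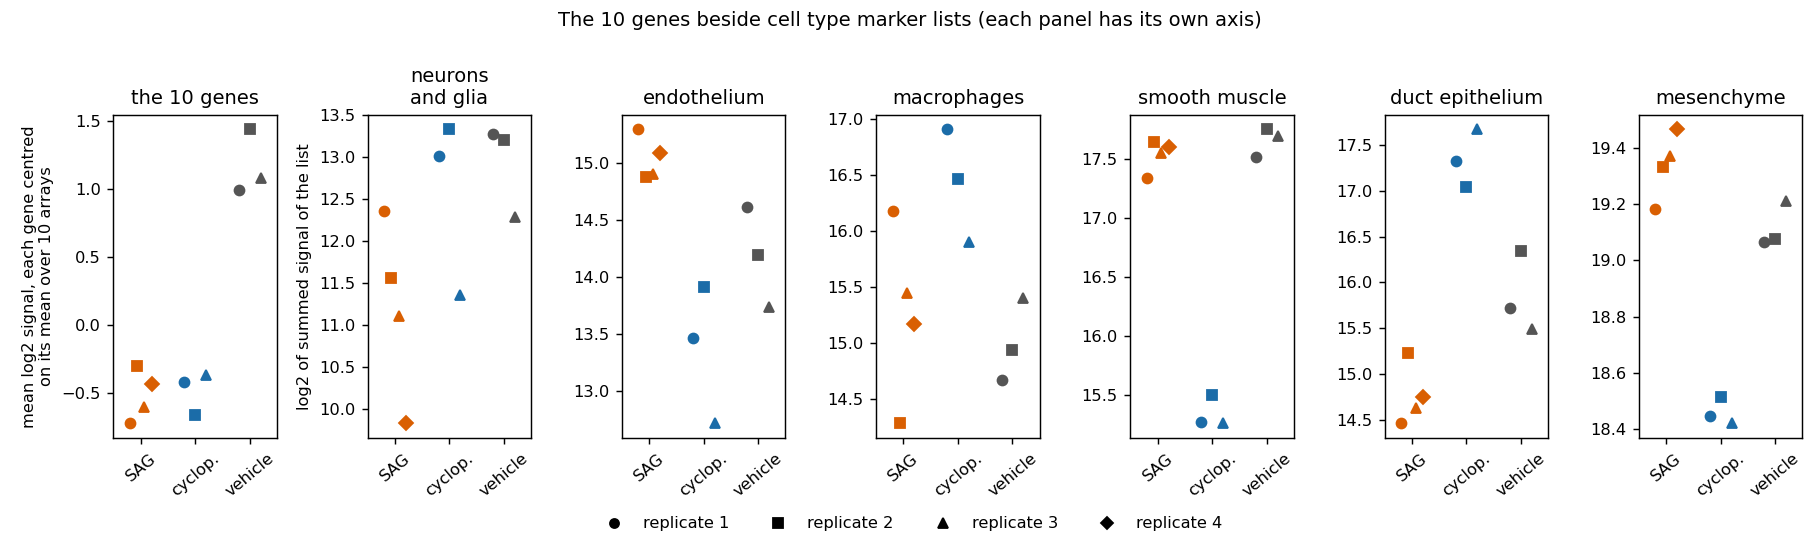
Mean log2 signal of the 10 genes, each centred on its own mean (first panel), and log2 of the summed signal of 6 marker lists (other panels) on each array, with SAG, cyclopamine and vehicle from left to right; points are arrays, symbols mark replicate numbers, and each panel has its own axis. Neuron and glia sums overlap between the groups, whereas smooth muscle sums lie at 15.26 to 15.50 with cyclopamine, below those with SAG (17.34 to 17.65) and vehicle (17.52 to 17.75).

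Among the enzymes, Maob encodes monoamine oxidase B, which breaks down amines such as dopamine and phenylethylamine at the mitochondrial outer membrane. Its signals were 9.28, 10.24, 9.98 and 9.61 with SAG, 10.85, 10.43 and 11.09 with cyclopamine, and 11.76, 11.96 and 12.33 with vehicle. The 3 groups did not overlap: SAG was lowest, cyclopamine intermediate and vehicle highest. Maob averaged 9.78 ± 0.42 with SAG, 10.79 ± 0.34 with cyclopamine and 12.02 ± 0.29 with vehicle (SD), 4.72-fold lower with SAG (-2.24) and 2.34-fold lower with cyclopamine (-1.23).

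Maob was the one gene of the 10 to differ between the compounds by the test. With SAG it was 1.01 ± 0.25 log2 units lower than with cyclopamine (2.01-fold; 95% interval -1.55 to -0.47; limma adjusted p = 0.0220, Benjamini-Hochberg over all probe sets). The call was lost without SAG replicate 4 (adjusted p = 0.0600), cyclopamine replicate 1 (0.0717) or cyclopamine replicate 3 (0.0911), and also with the replicate number as a block (0.0621) or with unmoderated variances (0.0747); the difference ran from -1.19 to -0.85 over all left-out arrays. Its neighbour on the X chromosome, Maoa, with no annotated gene between them, encodes the sister enzyme. Maoa averaged 10.57 with SAG, 10.16 with cyclopamine and 10.92 with vehicle; it fell with cyclopamine (-0.76 ± 0.16, limma adjusted p = 0.0253) and did not pass with SAG (-0.35 ± 0.15, limma adjusted p = 0.438) or between the compounds (0.41 ± 0.15, limma adjusted p = 0.127). That fall was lost without any vehicle array or cyclopamine replicate 2 or 3 (adjusted p up to 0.0852). Of 8 measured genes of monoamine handling, Maoa was the one that passed with cyclopamine, and 0 passed with SAG (unadjusted, 1 was lower with SAG and 2 with cyclopamine). Their differences from vehicle were below 0 for 7 of the 8 with SAG (median -0.40) and for 7 with cyclopamine (median -0.75). Dbh, dopamine beta-hydroxylase, varied too widely to pass (-1.79 ± 1.32 with SAG, -3.46 ± 1.41 with cyclopamine).

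Entpd1 encodes CD39, an ectoenzyme that degrades extracellular ATP and ADP to AMP. It measured 9.51, 10.33, 10.24 and 10.09 with SAG, 9.61, 7.79 and 9.52 with cyclopamine, and 11.95, 12.71 and 12.03 with vehicle. Its gap between the lowest vehicle and the highest treated array, 1.61, was the widest of the 10 genes, and cyclopamine replicate 2 lay far under the other treated arrays. Means were 10.04 ± 0.37 with SAG, 8.97 ± 1.03 with cyclopamine and 12.23 ± 0.42 with vehicle (SD), 4.55-fold lower with SAG (-2.18) and 9.55-fold lower with cyclopamine (-3.26). The difference between SAG and cyclopamine, 1.07 ± 0.41 (95% interval 0.17 to 1.97), had an unadjusted p of 0.0241 and did not pass after adjustment (limma adjusted p = 0.133). It was 0.48 without cyclopamine replicate 2.

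CD39 is abundant on endothelial cells and macrophages, among other cells. The summed signal of 8 endothelial markers was 14.88 to 15.29 with SAG, 12.72 to 13.91 with cyclopamine and 13.74 to 14.61 with vehicle. That of 9 macrophage markers was 14.28 to 16.18 with SAG, 15.90 to 16.91 with cyclopamine and 14.66 to 15.40 with vehicle. By the mean log2 signal of the same markers the groups lay differently: endothelium was 9.60 to 9.99 with SAG, 7.86 to 9.34 with cyclopamine and 8.99 to 9.97 with vehicle, and macrophages 10.03 to 10.82 with SAG, 9.83 to 11.33 with cyclopamine and 10.22 to 10.59 with vehicle. The endothelial sums with SAG and the macrophage sums with cyclopamine lay above those with vehicle, and the corresponding means overlapped those with vehicle. With cyclopamine 1 endothelial marker fell, Kdr, a VEGF receptor (-1.44 ± 0.31, limma adjusted p = 0.0270), and 0 did without any one vehicle array or cyclopamine replicate 1 or 3; 2 fell without cyclopamine replicate 2. With SAG 0 endothelial markers passed (unadjusted, 1 higher; 1 rose without cyclopamine replicate 2). By limma 0 macrophage markers passed with either compound (unadjusted, 3 higher and 1 lower with cyclopamine, 0 with SAG), and with cyclopamine 1 rose when SAG replicate 1, SAG replicate 2 or cyclopamine replicate 2 was left out and 1 fell when cyclopamine replicate 1 was left out. The part of these cells in the Entpd1 differences was not tested. Of 14 measured genes of extracellular nucleotides and adenosine, 0 passed against vehicle with either compound (unadjusted, 1 was lower with SAG; 1 was higher and 1 lower with cyclopamine). Between the compounds 2 were lower with SAG: Ada, adenosine deaminase (7.36 with SAG, 8.36 with cyclopamine; limma adjusted p = 0.0111), and P2rx7, an ATP-gated channel (-0.93 ± 0.24, limma adjusted p = 0.0279), the second of which was lost without SAG replicate 2, 3 or 4 or cyclopamine replicate 1 (adjusted p up to 0.113).

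Galnt16 encodes an enzyme of the family that attaches the first sugar of mucin-type O-glycans. Signals were 9.61, 9.31, 8.86 and 9.32 with SAG, 8.84, 9.23 and 9.39 with cyclopamine, and 10.57, 10.83 and 10.86 with vehicle. The vehicle arrays lay within 0.29 of one another, the tightest vehicle range of the 10 genes, and 0.95 above the highest treated array. The means were 9.28 ± 0.31, 9.15 ± 0.28 and 10.75 ± 0.16 (SD) with SAG, cyclopamine and vehicle, with differences of -1.48 (2.78-fold lower) and -1.60 (3.03-fold lower). Among 15 measured genes of O-glycosylation, 0 passed with SAG against vehicle and 1 rose with cyclopamine, Galnt7 (0.74 ± 0.18, limma adjusted p = 0.0374), a rise that was lost without any vehicle array, SAG replicate 2 or cyclopamine replicate 1 or 2 (adjusted p up to 0.134). Unadjusted, 2 of the 15 were lower and 0 higher with SAG than with vehicle, and 1 was lower and 3 higher with cyclopamine. Galnt13 was at -0.54 with SAG and -0.56 with cyclopamine and did not pass (limma adjusted p = 0.175 and 0.0775). It was under the lower quartile of probe set means on all arrays. Galnt12 was lower with SAG than with cyclopamine (-1.35 ± 0.23, limma adjusted p = 0.00355) with any array left out.

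Ahr encodes the aryl hydrocarbon receptor, a transcription factor that small aromatic ligands activate and that pairs with ARNT. It read 8.27, 9.05, 8.70 and 8.40 with SAG, 9.07, 9.23 and 8.59 with cyclopamine, and 9.85, 10.31 and 9.72 with vehicle. Its gap of 0.49 between the groups was the narrowest of the 10 genes and smaller than the vehicle range of 0.58. Ahr averaged 8.60 ± 0.35 with SAG, 8.97 ± 0.33 with cyclopamine and 9.96 ± 0.31 with vehicle (SD), 2.56-fold lower with SAG (-1.36) and 1.99-fold lower with cyclopamine (-0.99).

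Targets and partners of the receptor did not move together. Of 9 measured, 0 passed with SAG against vehicle; with cyclopamine Nqo1, a quinone reductase induced by the receptor and by NRF2, rose (1.13 ± 0.19, limma adjusted p = 0.00895) and Tiparp, a target that feeds back on the receptor, fell (-0.71 ± 0.18, limma adjusted p = 0.0447). The Nqo1 rise passed with any array left out, and the Tiparp fall was lost without any one of the 10 arrays (adjusted p up to 0.141). With SAG these genes were at -0.24 ± 0.18 and -0.05 ± 0.17. The partner gene Arnt2 averaged 10.74 with SAG, 12.77 with cyclopamine and 12.09 with vehicle, and was lower with SAG than with cyclopamine (-2.03 ± 0.32, limma adjusted p = 0.00204).

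Lmcd1 encodes a LIM domain protein that binds GATA6 and holds back its activity. The SAG arrays read 7.69, 8.57, 8.13 and 8.03, the cyclopamine arrays 8.01, 8.36 and 8.17, and the vehicle arrays 9.16, 10.24 and 9.61. The cyclopamine values lay within the SAG range, and the vehicle arrays were spread over 1.08, more than the gap of 0.59. Means were 8.11 ± 0.36, 8.18 ± 0.17 and 9.67 ± 0.54 (SD) with SAG, cyclopamine and vehicle, 2.96-fold lower with SAG (-1.57) and 2.81-fold lower with cyclopamine (-1.49); without vehicle replicate 2 the differences were -1.28 and -1.21. Of 11 measured LIM domain and GATA genes, 0 passed with SAG against vehicle and 2 fell with cyclopamine: Gata2 (-1.98 ± 0.28, limma adjusted p = 0.00406) and Fhl2, a LIM-only cofactor (-1.14 ± 0.28, limma adjusted p = 0.0410). The Gata2 call passed with any array left out, and the Fhl2 call was lost without any vehicle array, SAG replicate 3 or 4, or either of cyclopamine replicates 1 and 3 (adjusted p up to 0.139). Between the compounds 4 of the 11 were higher and 4 lower with SAG, Gata2 (2.23 ± 0.27, limma adjusted p = 0.000373), Fhl2 (1.88 ± 0.26, limma adjusted p = 0.000899) and Csrp1 (0.73 ± 0.15, limma adjusted p = 0.0101) among the higher.

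Minar2 encodes a membrane protein named for its relation to NOTCH2. Signals were 6.01, 5.97, 5.51 and 6.19 with SAG, 6.67, 5.94 and 6.22 with cyclopamine, and 7.27, 7.74 and 7.38 with vehicle. The treated groups overlapped, with 0.60 between the highest treated and the lowest vehicle array. Means of 5.92 ± 0.29, 6.28 ± 0.37 and 7.46 ± 0.25 (SD) with SAG, cyclopamine and vehicle gave differences of -1.54 (2.92-fold lower) and -1.19 (2.27-fold lower). Its paralogue Minar1 averaged 4.23, 4.34 and 4.38 and passed in no comparison, and Notch2 was higher with SAG than with cyclopamine (0.74 ± 0.17, limma adjusted p = 0.0170), a call lost without cyclopamine replicate 1 or 3 (adjusted p up to 0.0723).

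**Figure D3:**
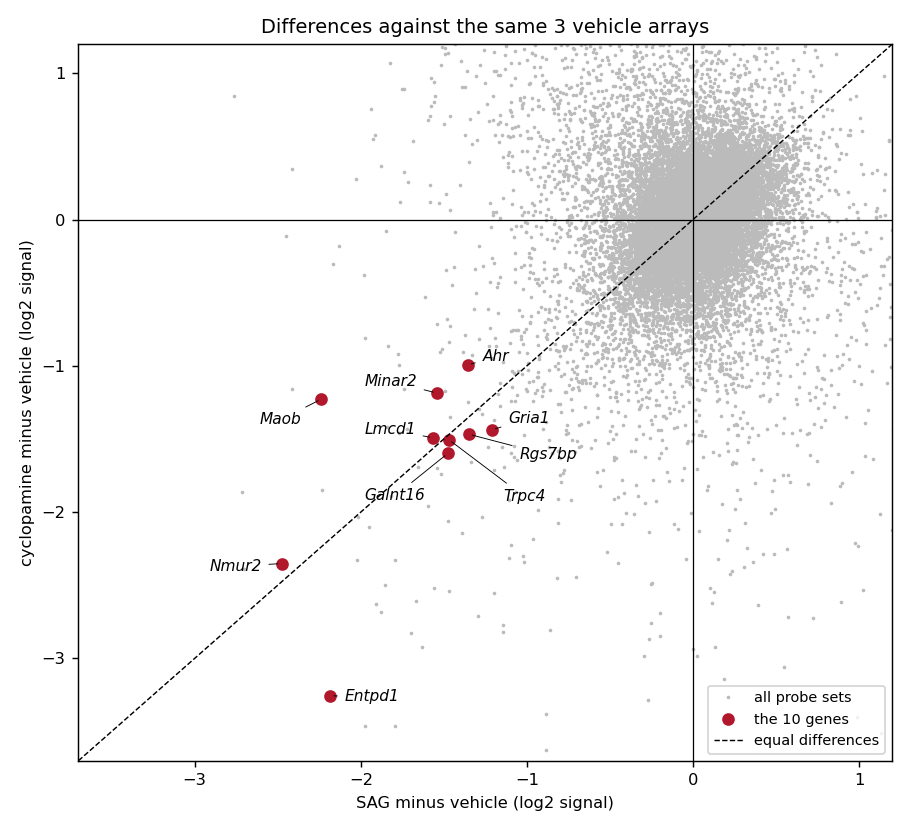
Difference from vehicle in log2 signal with SAG (horizontal axis) and with cyclopamine (vertical axis) for all probe sets in the window shown (grey) and the 10 genes (red); the dashed line marks equal differences, and both axes share the same 3 vehicle arrays. The 10 genes lie near the line apart from Maob (-2.24 and -1.23) and Entpd1 (-2.18 and -3.26).

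Between the compounds, 1 of the 10 genes passed (Maob), where 2518 of 22206 probe sets did (11.3%), and 2 had an unadjusted p under 0.05 (Maob and Entpd1), where 5205 probe sets did (23.4%). Arrays of the SAG and cyclopamine groups were separated for Maob alone of the 10, and for 21.2% of all probe sets. Because the treated means entered the choice of the genes, nothing is read from these counts beside those shares. The median difference of SAG minus cyclopamine was -0.02 over the 10 genes and 0.01 over all probe sets, and its median size without sign was 0.18 and 0.20. Nmur2, Maob, Lmcd1, Minar2 and Ahr had the lower mean with SAG, and Entpd1, Galnt16, Trpc4, Rgs7bp and Gria1 the lower mean with cyclopamine.

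For 8 genes the difference between the compounds had an adjusted p of 0.357 or more, which does not show equal levels. The intervals give what the arrays allow. That of Nmur2 ran from -0.90 to 0.65 around -0.12 ± 0.35, that of Lmcd1 from -0.64 to 0.50 around -0.07 ± 0.26, and that of Trpc4 from -0.53 to 0.59 around 0.03 ± 0.25. The spread behind every interval was estimated over all groups, vehicle included. Within Trpc4 the SD was 0.67 with vehicle, 0.12 with SAG and 0.15 with cyclopamine. For Galnt16 the interval was -0.30 to 0.55 around 0.12 ± 0.19, for Rgs7bp -0.35 to 0.59 around 0.12 ± 0.21, and for Gria1 -0.22 to 0.67 around 0.23 ± 0.20. Minar2 (-0.36 ± 0.21, interval -0.83 to 0.11) and Ahr (-0.36 ± 0.23, interval -0.86 to 0.14) leaned to the lower side with SAG. At every one of these 8 genes the upper and lower bounds stayed under 1 log2 unit in size.

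**Figure D4:**
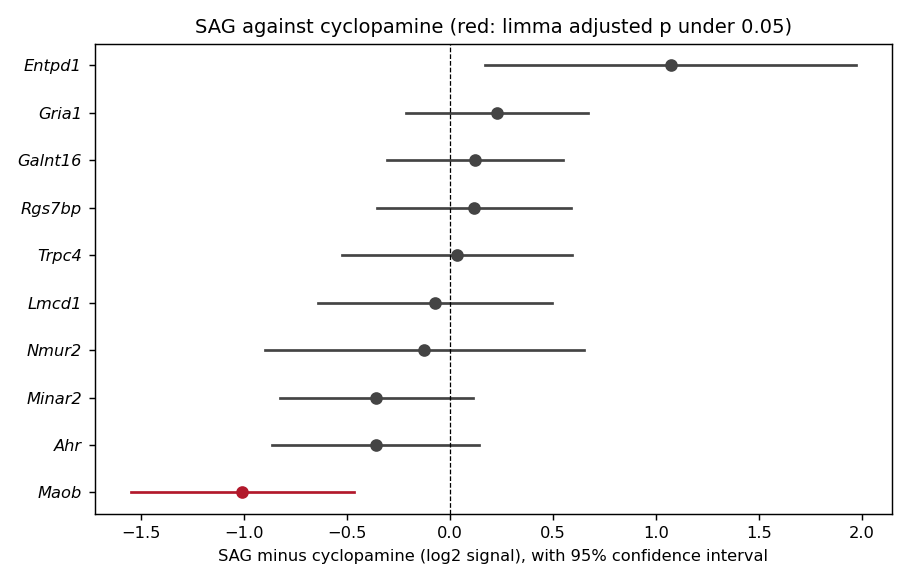
Difference of SAG minus cyclopamine in log2 signal for the 10 genes, with points for the estimates and lines for the 95% intervals of the limma fit; the dashed line marks 0 and red marks a limma adjusted p under 0.05. The intervals of Maob (-1.55 to -0.47) and Entpd1 (0.17 to 1.97) do not cross 0, and those of the other 8 genes do.

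Each of the 20 differences was taken against the same 3 vehicle arrays. Vehicle replicate 2 had the highest vehicle value for 6 genes (Entpd1, Lmcd1, Minar2, Trpc4, Ahr and Gria1), replicate 3 for 3 (Nmur2, Maob and Galnt16) and replicate 1 for Rgs7bp. With every gene centred on its own mean, the 10 genes together averaged 0.99, 1.44 and 1.08 on vehicle replicates 1, 2 and 3, between -0.72 and -0.30 on the SAG arrays, and between -0.66 and -0.36 on the cyclopamine arrays. Leaving out any vehicle array moved 0 of the 20 differences by more than 1.5 times. As the genes were chosen on these differences, nothing is read from that count. Taken against a single vehicle array, the shallowest differences were -0.76 for Ahr with cyclopamine and -0.77 for Gria1 with SAG. The SD of the 10 genes within a group had a median of 0.33 with SAG, 0.33 with cyclopamine and 0.32 with vehicle, above the medians of 0.21, 0.22 and 0.19 over all probe sets.

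**Figure D5:**
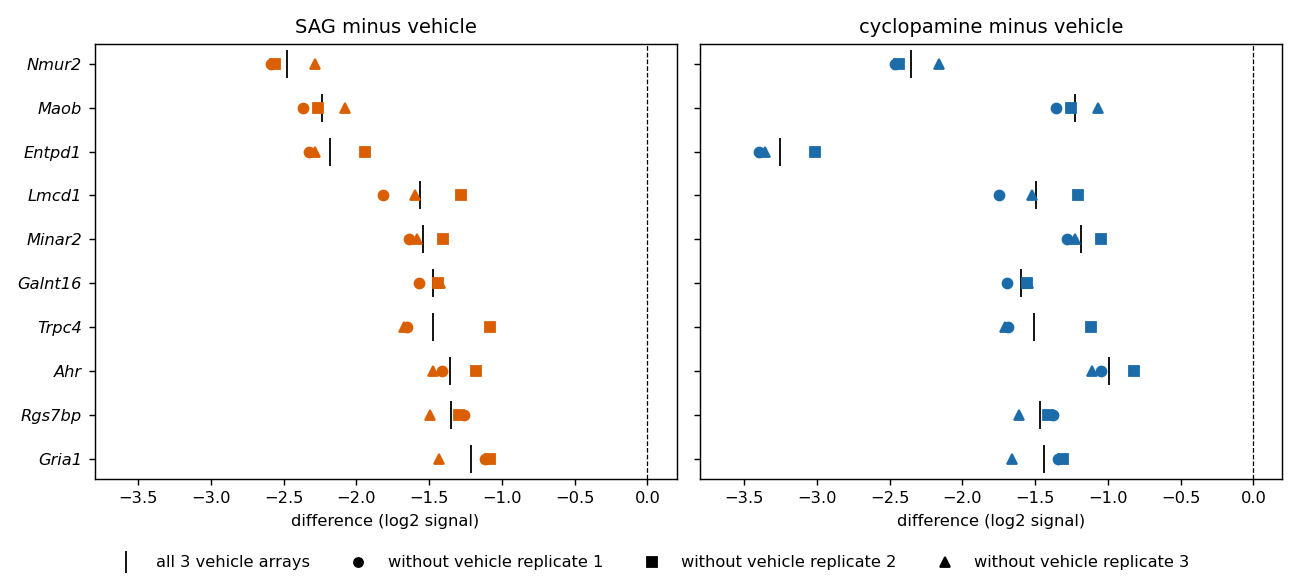
Difference from vehicle in log2 signal for the 10 genes with SAG and with cyclopamine, computed with all 3 vehicle arrays (vertical bars) and with each of them left out (symbols); the horizontal axis is the difference and the dashed line marks 0. The widest movement is that of Trpc4 without vehicle replicate 2, at -1.08 with SAG and -1.12 with cyclopamine.

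The 10 genes were not the whole of what lay lower with both compounds. With the smaller of the 2 differences as the measure, Nmur2 and Entpd1 were at ranks 3 and 4 of the 19505 genes, and Ahr, the shallowest of the 10, was at rank 83. Of those 83 genes, 34 had all treated arrays below all vehicle arrays. Just inside the level of Ahr were Cmtm5 (means of 7.79 with SAG, 7.62 with cyclopamine and 8.79 with vehicle) and Cfap126 (differences of -0.99 with SAG and -1.03 with cyclopamine). Just outside were Opcml (-0.98 and -1.11) and Smoc1 (means of 11.41, 11.43 and 12.41 in the same order of groups). The deepest genes beside the 10 were Psca, a surface antigen of epithelia (-4.48 and -3.42), the keratin gene Krt4 (-2.70 and -2.39), Syn2, a synaptic vesicle protein (-2.02 and -2.33), Gmnc, a regulator of multiciliated cells (-2.02 and -2.03), and the collagen gene Col6a4 (-1.95 and -2.10). Among these 5, Gmnc alone had separated arrays (gap 0.57), and the vehicle arrays of Psca, Krt4 and Syn2 were spread over 4.66, 3.93 and 2.75.

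Over the 10 arrays, each of the 10 genes followed the mean profile of the other 9 with a Pearson correlation between 0.84 (Maob) and 0.94 (Lmcd1). That correlation contains the step between treated and vehicle arrays on which the genes were chosen. The genes outside the set with the most similar profiles were Cmtm5 (r = 0.94), Lrrc75b (0.93), and Col4a6, Jpt1 and Smoc1 (0.92 each, n = 10 arrays). Col4a6, a basement membrane collagen chain, was at -0.90 with SAG and -1.12 with cyclopamine.

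Over the 10 lists of related genes together, 98 of 109 genes were measured. With SAG against vehicle, 0 passed by limma (unadjusted, 2 were higher and 17 lower), where 162 of 22206 probe sets did (0.73%), and the median difference was -0.10. With cyclopamine against vehicle 2 rose and 9 fell, where 1136 probe sets passed (5.12%), and the median was -0.02. Between the compounds 10 were higher and 11 lower with SAG (11.3% of all probe sets passed), with a median of 0.01. Leaving out vehicle replicate 1, 2 or 3 gave 3, 5 and 4 cyclopamine calls, of which 3, 4 and 4 were among the 11, and leaving out cyclopamine replicate 1 or 3 gave 7 calls each, 5 of them among the 11. Leaving out cyclopamine replicate 2 or 3 gave 3 and 1 SAG calls, and leaving out SAG replicate 3 gave 12 calls between the compounds, all among the 21.

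Among the other marker lists, duct epithelium markers summed to 14.46 to 15.23 with SAG, 17.04 to 17.67 with cyclopamine and 15.50 to 16.35 with vehicle. Of 11 measured, 2 fell with SAG and 5 rose with cyclopamine (unadjusted, 9 lower with SAG, and 9 higher and 1 lower with cyclopamine). All 11 differences were below 0 with SAG (median -1.30), and with cyclopamine 10 were above 0 and 1 below (median 1.09). Leaving out any one vehicle array or SAG replicate 1, 3 or 4 gave 0 SAG calls; leaving out cyclopamine replicate 1 gave 1, and leaving out cyclopamine replicate 2 gave 5. For cyclopamine there were 2 calls without vehicle replicate 1 or 3, 3 with SAG replicate 1, 3 or 4 left out or cyclopamine replicate 1 or 3 left out, and 9 without cyclopamine replicate 2. The mean log2 signal of 10 smooth muscle markers was 11.82 to 12.01 with SAG, 9.72 to 10.13 with cyclopamine and 12.20 to 12.62 with vehicle, so by this summary, unlike by the sum, every SAG array lay below every vehicle array; 9 of the 10 differences with SAG were below 0 (median -0.53). Of these markers 8 fell with cyclopamine with any array left out, and 0 passed with SAG (unadjusted, 6 lower; 1 fell without SAG replicate 1, cyclopamine replicate 2 or cyclopamine replicate 3). Mesenchyme and fibroblast markers summed to 19.18 to 19.47 with SAG, 18.42 to 18.51 with cyclopamine and 19.07 to 19.21 with vehicle, with 6 of 9 markers that fell with cyclopamine and 0 past the test with SAG (unadjusted, 3 higher; 1 rose without SAG replicate 1). The part of these tissues in the differences of the 10 genes was not tested.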

How the data were processed

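RNA of cultured mouse Wolffian ducts was labelled with biotin (100 ng per sample, RNA integrity number of at least 7) and hybridised to Affymetrix arrays, per the labels' protocols. The authors deposited log2 signals for 22206 probe sets on 10 arrays. The log2 base is inferred from the values (2.95 to 18.7); the sources used here do not name the summarization or normalization. The platform's annotation named 19572 probe sets, 2634 stayed unnamed here, and a RefSeq table of GRCm38.p6 changed 0 symbols.

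Groups came from the sample labels. With limma 3.58.1 in R 4.3.3, 1 mean per group was fitted to all 10 arrays (lmFit, 7 residual degrees of freedom), followed by eBayes (3.70 prior degrees of freedom). Tests were two-sided, with p-values adjusted over all 22206 probe sets by Benjamini-Hochberg and a call at 0.05. No filter was applied. Errors beside differences are moderated standard errors, and intervals cover 95%. The fit was tested on simulated data.

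The 10 genes, the lists of related genes and the marker lists were chosen with earlier results of these data known. Named beside the 10 genes were up to 3 genes of each related list and up to 2 of each marker list by smallest p, the 5 deepest shared differences and the 5 most similar profiles among other named genes, and Gli1, Ptch1 and Hhip as a check of treatment. Cdh1, Nmu and the further exceptions stated in the text were named after their values were seen. Replicate numbers 1 to 3 recur in each group. The deviations of same-numbered arrays correlated at -0.19 to 0.24 (9 pairs) and those of other numbers at -0.22 to 0.23 (18 pairs), so the numbers were not taken to pair the samples. The alternatives run were the replicate block, each array left out in turn, array weights, unmoderated variances, a prior variance that depends on intensity, a fit of only the groups compared, quantile normalization, arrays centred on their medians, omission of the dimmest 25% of probe sets, and averaging of a gene's probe sets. Of the related genes, 98 of 109 were measured. Promoter windows came from RefSeq.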

Additional observations from a re-analysis of the deposited data

How the results depend on the processing

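With quantile normalization or centring on medians, all treated arrays still lay below all vehicle arrays for the 10 genes. Omitting the dimmest 25% of probe sets or averaging probe sets left the values of these genes, each with a single probe set, unchanged. Leaving out an array cannot close a gap between groups. Those settings therefore could not alter the order. The Maob difference between the compounds was negative in each alternative run. Between SAG and cyclopamine, the count of 1 of the 10 genes (Maob) was 0 with the replicate block (Maob -0.95, adjusted p = 0.0621) and 0 with unmoderated variances (adjusted p = 0.0747), and 0 to 1 with an array left out. The replicate block changed no other call among the 10 genes. Uncalled differences of Nmur2, Lmcd1, Galnt16, Trpc4 and Rgs7bp between the compounds changed sign in some of these. Related genes past the test with SAG against vehicle, 0 in the report, numbered 3 with only the groups compared and 2 with array weights, and 0 to 3 with an array left out. With cyclopamine against vehicle, 11 became 4 with only the groups compared, 6 with the replicate block and 4 with unmoderated variances, and 3 to 13 with an array left out. Between the compounds, 21 became 11 with the replicate block and 11 with unmoderated variances, and 12 to 24 with an array left out. Over all probe sets, the SAG count of 162 was 296 with only the groups compared, 313 with array weights, 32 with the block, 9 with unmoderated variances and 45 to 339 with an array left out. The cyclopamine count of 1136 was 566, 653 with the block, 568 with unmoderated variances and 485 to 1471 with an array left out, and the count of 2518 between the compounds was 1613 with the block. The cause of these shifts was not tested. Signals near the lower end of the scale can understate differences, and whether this held for Nmur2 on the treated arrays was not tested.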

Other observations

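Genes other than the 10 had a gap between treated and vehicle arrays as wide as that of the narrower ones among the 10. Ranked by the gap between the lowest vehicle and the highest treated array, 20 of the 19505 genes reached the gap of Ahr (0.49), 10 of them the genes above. The others, named after their values were seen, were Cap2, Spock2, Kcnd2, Lrrc75b, Cmtm5, Gmnc, Dpp6, Cacna1d, Rbm24 and Smoc1. The widest gap among these others was that of Cap2 (0.63, rank 8). Kcnd2, a pore subunit of A-type potassium channels, averaged 7.14 with SAG, 7.43 with cyclopamine and 8.86 with vehicle. Dpp6, an auxiliary subunit of the same channels, averaged 8.80, 7.48 and 9.81 in these groups. Cacna1d, an L-type calcium channel subunit, averaged 8.24 with SAG, 7.79 with cyclopamine and 9.26 with vehicle. Spock2, an extracellular matrix proteoglycan, averaged 11.09, 10.95 and 12.19, and Rbm24, an RNA-binding protein of muscle, 6.82, 5.47 and 8.02.

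A list of urothelial markers, added after Psca and Krt4 had been seen among the deepest shared differences, holds Psca itself. Its summed signal was 12.02 to 13.96 with SAG, 12.34 to 15.26 with cyclopamine and 13.17 to 14.14 with vehicle, so the groups overlapped. By limma 0 of 10 passed against vehicle with either compound; at an unadjusted p under 0.05, 1 was higher and 2 lower with SAG and 2 were lower with cyclopamine. Of the 10 differences, 8 were below 0 with SAG (median -0.82) and 8 with cyclopamine (median -0.90). Without vehicle replicate 3, 2 markers fell with SAG and 2 with cyclopamine; 1 rose with SAG without SAG replicate 1, and 1 rose with cyclopamine without cyclopamine replicate 2.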
